A study of Mus musculus with 15 samples.

Results

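Brain tissue of APP-PS1 mice that had received an antibody against CD8a was compared with that of wild-type (WT) mice that had received PBS. The members are the 5 libraries labelled as antibody-treated APP-PS1 and the 5 labelled as WT given PBS, 10 of the 15 libraries of the series, each from 1 mouse, chosen by their labels alone. The other 5 libraries come from APP-PS1 mice given PBS; they enter the model, where they add to the estimates of spread and of the sex term and to filtering and scaling, and are quoted beside some results. APP-PS1 mice carry 2 transgenes, APP695swe (amyloid precursor protein, part mouse and part human, carrying the Swedish mutation) and human PS1-dE9, each driven in neurons of the central nervous system by the prion protein promoter. Treatment was given at 12 months of age as 10 intraperitoneal injections over 4 weeks. Treated mice received 0.8 mg of the antibody (clone 2.43) per injection and WT mice 100 µL of PBS. The protocol also names an isotype control antibody, but the control libraries are labelled PBS, and no library labelled with that antibody is analysed here. By label the treated group holds 2 females and 3 males and the WT group 4 females and 1 male, the male being WT replicate 5. No WT mouse in these libraries had the antibody and no treated mouse lacked the transgenes, so the effects of genotype and antibody cannot be told apart in this comparison. The tissue is labelled only as brain, and markers of cerebral cortex and hippocampus were present in each of the 10 libraries, with Neurod6 at 177 to 238 CPM and Zbtb20 at 570 to 863 CPM (CPM, counts scaled to a common library size).

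In mice of this line, amyloid beta collects in plaques and microglia, the macrophages of the brain, gather around them. Such microglia raise genes for phagocytosis, lipid handling and lysosomes, a state known as disease-associated microglia, in which Trem2 is a controlling receptor. Interferons act through transcription factors that bind a short element in the promoters of antiviral genes, and interferon genes are known to rise in microglia with age and with amyloid. CD8a is a co-receptor on cytotoxic T cells, which recognise peptides held by MHC class I molecules.

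The element that these factors bind, the interferon-stimulated response element, has as its core 2 copies of GAAA with any 2 bases between them. Stretches of 6 promoters are shown, chosen among genes of the interferon and MHC class I lists that passed the test and hold the core. Other listed genes that passed have no match from 250 bases before to 50 after the start, among them Irf7, Oasl2, Tap1 and H2-D1. Each line is the 150 bases that end 1 base before the RefSeq start site (GRCm38.p6), 5′ to 3′ on the strand of the gene, with matches to the core on either strand in capitals.
Oas1a: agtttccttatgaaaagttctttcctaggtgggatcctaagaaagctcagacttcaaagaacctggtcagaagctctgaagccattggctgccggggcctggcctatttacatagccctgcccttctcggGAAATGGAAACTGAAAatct
Isg15: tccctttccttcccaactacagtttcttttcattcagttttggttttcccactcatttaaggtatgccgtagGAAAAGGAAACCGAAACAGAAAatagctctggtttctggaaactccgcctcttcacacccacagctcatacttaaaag
Ifi207: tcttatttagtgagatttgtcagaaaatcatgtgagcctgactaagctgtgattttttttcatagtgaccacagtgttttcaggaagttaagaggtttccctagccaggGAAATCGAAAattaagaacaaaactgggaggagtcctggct
Irgm1: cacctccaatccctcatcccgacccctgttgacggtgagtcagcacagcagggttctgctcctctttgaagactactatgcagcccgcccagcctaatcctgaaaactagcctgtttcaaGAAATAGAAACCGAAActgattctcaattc
Gbp3: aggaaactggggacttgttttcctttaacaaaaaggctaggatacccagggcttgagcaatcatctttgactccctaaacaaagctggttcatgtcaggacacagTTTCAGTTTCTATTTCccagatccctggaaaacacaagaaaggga
B2m: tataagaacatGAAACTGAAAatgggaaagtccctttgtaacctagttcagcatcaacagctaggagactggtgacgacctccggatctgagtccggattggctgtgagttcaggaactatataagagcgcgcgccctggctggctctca
The stretches lie at chr5:120907526-120907675 (minus strand, Oas1a), chr4:156200819-156200968 (minus, Isg15), chr1:173741810-173741959 (minus, Ifi207), chr11:48871421-48871570 (minus, Irgm1), chr3:142559894-142560043 (plus, Gbp3) and chr2:122147537-122147686 (plus, B2m). In Oas1a, Isg15, Irgm1 and Gbp3 the matches overlap each other, starting for Oas1a at -20 and -14 and for Irgm1 at -30 and -24 from the start site. Gbp3 carries the match on the opposite strand, where the copies read TTTC. Isg15 was added to the lines after its values were seen. Among all 32851 promoter windows of 300 bases (250 before to 50 after the start), 3.44% hold the core on either strand, and 3.99% of 27025 genes have a window that does. Windows were found for 15 of the interferon effector genes that passed the test, and 10 of them hold it (66.7%), while over all listed effectors with a window 14 of 33 do (42.4%). All 4 of the interferon-inducible GTPase genes that passed and have a window hold it, as do 2 of 3 genes of the PYHIN family, 1 of 6 MHC class I genes and 1 of 4 genes of interferon sensing. Over all listed genes with a window the counts are 9 of 9 GTPases, 8 of 11 PYHIN genes, 4 of 17 class I genes and 2 of 16 sensing genes. None of the 13 disease-associated microglia genes that passed and have a window holds it, and 1 of all 22 listed does. A match is a description of the sequence, not a bound site.

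In edgeR's quasi-likelihood test, with an adjusted p under 0.05 as the threshold, 369 of 18974 genes tested passed (1.94%), 334 higher in treated APP-PS1 mice (1.76%) and 35 lower (0.184%). The median log2 fold change was 0.90 among the genes that passed upward and -0.68 among those that passed downward, against -0.003 over all genes tested. All 5 libraries of one group lay beyond all 5 of the other for 273 of the 369 genes; over all genes tested this held for 410 genes upward (2.16%) and 166 downward (0.875%). Between APP-PS1 mice given PBS and the same WT mice 195 genes passed (1.03%), 178 upward (0.938%) and 17 downward (0.0896%). Both comparisons use the same 5 WT libraries, so their values are given side by side and not correlated. Between the antibody-treated and PBS-given APP-PS1 mice no gene passed in edgeR, where 2529 had an unadjusted p under 0.05 and the smallest adjusted p was 0.223, while DESeq2 called 132 genes.

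The 10 libraries held between 24001016 and 36485809 counts assigned to genes, at which 3 counts correspond to 0.0824 to 0.127 CPM, a floor for counting error only. Anti-CD8a replicate 3 stood apart: of the 334 genes that passed upward it was the highest of the 5 treated libraries in 302 (90.4%), against 21.4% of all genes tested. Its depth (29950355 counts) and scaling factor (0.992) lay within the range of the other treated libraries. Without it 140 genes passed, 128 upward and 12 downward. Ttr, a transcript that the choroid plexus makes in large amounts, exceeded 1000 CPM in WT replicates 3 (2216 CPM) and 5 (6468 CPM) and in anti-CD8a replicate 1 (1860 CPM), and between 20.7 and 107 CPM in the other 7. Without the libraries above 1000 CPM of Ttr, among them 2 of APP-PS1 mice given PBS, 199 genes passed, 175 upward and 24 downward. On the 10 libraries of the comparison alone 221 genes passed. Counts of a list without anti-CD8a replicate 3, without the libraries rich in Ttr or on the 10 libraries alone are given where they moved by more than 1.5 times, and in some other cases.

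The genes tied to the transgenes separated the groups in every library. App (chromosome 16, 84949685 to 85173766, minus strand), the gene of the amyloid precursor protein, was at 1230, 1233, 1245, 1324 and 1288 CPM in WT replicates 1 to 5 and at 2467, 3153, 2908, 2658 and 2655 CPM in anti-CD8a replicates 1 to 5. No treated library came near the WT range. The mean was 2768 ± 266 CPM against 1264 ± 40.6 CPM (SD, n = 5 each), 2.2-fold higher in the fit (log2 fold change 1.14 with an SE of 0.08, and an adjusted p of 4.3e-07 by edgeR). Prnp, the prion protein gene whose promoter drives the transgenes, was 2.23-fold higher (1034 ± 31.9 CPM in WT and 2268 ± 220 CPM in treated mice). The processed pseudogene Lamr1-ps1, near Prnp on chromosome 2 (131904086 to 131904959, plus strand), had 0 counts in all 5 WT libraries and 78 to 143 counts in each treated library, 531 in all. With 3 counts set as the floor for the whole WT group, this is at least 169-fold higher. Rpsa, the ribosomal protein gene from which this pseudogene derives, was at 210 ± 19.4 CPM in WT and 220 ± 14.1 CPM in treated mice (adjusted p = 0.778).

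Genes of disease-associated microglia were raised in treated APP-PS1 mice. Of 28 members tested 16 passed upward and none downward, with a median log2 fold change of 0.93, beside 0.94 in PBS-given APP-PS1 mice. Cst7, the gene of the cathepsin inhibitor cystatin F, was at 0.411, 0.29, 0.231, 0.424 and 0.394 CPM in WT replicates 1 to 5 and at 9.31, 19.7, 53.2, 17.3 and 11.9 CPM in the treated replicates. The groups did not overlap, and replicate 3 was the highest by a wide gap. The log2 fold change was 6.24 with an SE of 0.39 (adjusted p = 3.6e-07), and 5.66 without that library. Itgax, the integrin CD11c, ran from 0.462 to 0.616 CPM in WT and from 3.67 to 26.0 CPM in treated mice, 22.9-fold higher in the fit. Clec7a, the beta-glucan receptor dectin-1, ran from 0.318 to 0.948 and from 4.84 to 12.2 CPM, 13.6-fold higher. Trem2, a receptor for lipids, was at 11.2, 11.6, 11.4, 11.4 and 10.8 CPM in the WT replicates and at 22.6, 31.2, 59.2, 32.5 and 24.2 CPM in the treated ones, 3.31-fold higher (adjusted p = 0.000127). Its signalling partner Tyrobp had a log2 fold change of 1.62, the endosomal protein gene Cd68 1.65 and the lysozyme gene Lyz2 1.64. Apoe, the lipid carrier (0.15, adjusted p = 0.629), Spp1, osteopontin (0.61, adjusted p = 0.716), and Lgals3, galectin 3 (0.27, adjusted p = 0.81), are members that did not pass. Without anti-CD8a replicate 3, 12 of the 28 passed.

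**Figure D1:**
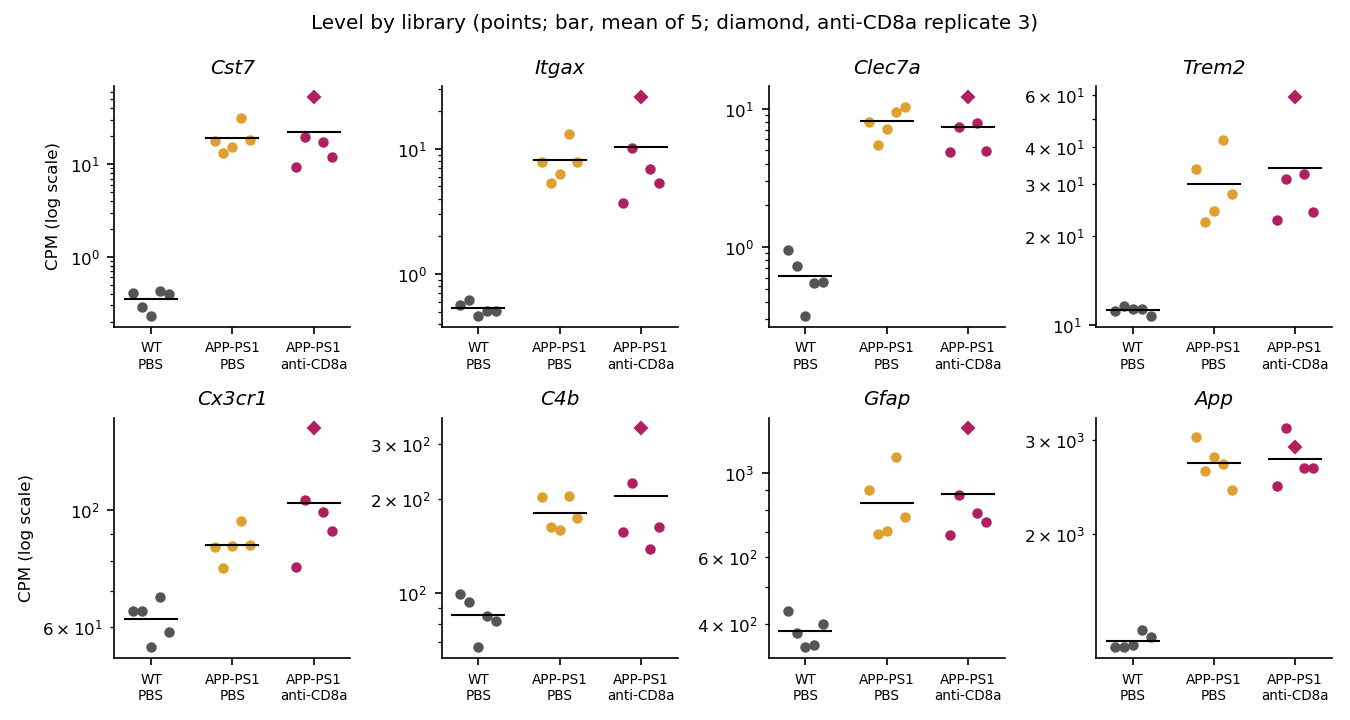
CPM (log scale) of 8 genes in each of the 15 libraries, by group, with a bar at the mean of 5 and a diamond for anti-CD8a replicate 3. In all 8 the treated libraries lie above all WT libraries, and the diamond is the highest treated point for every gene shown but App.

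Genes that mark microglia at rest were higher as well. Of 15 homeostatic genes 9 passed upward, none downward, and all 15 had a higher estimate (median 0.56, beside 0.45 in PBS-given APP-PS1 mice). Cx3cr1, the fractalkine receptor, was at 64.2, 64.3, 54.8, 68.2 and 58.5 CPM in WT replicates and at 77.8, 104, 143, 98.9 and 91.4 CPM in treated replicates, so that the lowest treated library stood above the highest WT one. It was 1.76-fold higher in the fit (log2 fold change 0.82, SE 0.10, adjusted p = 0.000323). Csf1r, the receptor microglia need to survive, was 1.66-fold higher and Fcrls 2.08-fold. P2ry12, the purine receptor often used to label these cells, had a log2 fold change of 0.45 (adjusted p = 0.0176). Tmem119 (0.30, adjusted p = 0.232) and Sall1 (0.35, adjusted p = 0.0615) did not pass. Without anti-CD8a replicate 3, 6 of the 15 homeostatic genes passed, and all 15 estimates stayed above 0 (median 0.38). The count was also 6 without the libraries rich in Ttr and on the 10 libraries alone. In tissue with many cell types, more cells of a type and more RNA per cell cannot be told apart. Markers of monocytes and of macrophages at the brain's borders, among them Ccr2, Ly6c2 and Mrc1, had 0 of 9 members past the threshold in edgeR, with 0 at an unadjusted p under 0.05 and 0 in DESeq2. Top2a, a DNA topoisomerase of dividing cells, rose 2.12-fold (0.748 ± 0.215 to 1.52 ± 0.287 CPM) as the one of 9 cell division genes that passed, and Mki67 was next (log2 fold change 0.54, adjusted p = 0.0699). The Top2a call was lost without anti-CD8a replicate 3 (1.02, adjusted p = 0.148) and without WT replicate 2 or 3, without the libraries rich in Ttr and on the 10 libraries alone.

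Genes of digestion in lysosomes passed in part. Among 20 lysosome genes 8 passed, none downward (median 0.30). Ctss, cathepsin S, was at 75.3 to 105 CPM in WT and 143 to 269 CPM in treated mice, with no overlap (2.05-fold). Grn, progranulin, was 1.56-fold higher and the mannosidase gene Man2b1 1.42-fold. Psap and Lamp2 had estimates below 0 (-0.09 and -0.01). Without WT replicate 5, 13 of the 20 passed. Of 19 complement genes 7 passed upward and none downward, and 7 passed when any single library was left out. C1qa and C1qb, chains of the initiator C1q, were 2.26-fold and 2.05-fold higher. C4b, which is cleaved downstream of C1q, was at 99.4, 93.6, 67.1, 84.4 and 81.8 CPM in the WT replicates and at 157, 226, 337, 139 and 163 CPM in the treated ones, 2.58-fold higher (adjusted p = 0.000247). C3ar1, the receptor for a fragment of C3, was 2.74-fold higher, and Itgb2 and Itgam, which form complement receptor 3, had log2 fold changes of 1.13 and 0.74. C3 itself (0.52, SE 0.50, adjusted p = 0.735) and the regulators Cd55 (-0.47) and Cd59a (-0.83) did not pass.

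Receptors for antibodies and for microbial products were higher in treated mice. Of 6 Fc receptor genes 5 passed upward. Fcgr2b, the inhibitory receptor, was 2.87-fold higher (5.51 ± 0.829 to 14.4 ± 6.995 CPM) and Fcgr1, the high-affinity receptor, 2.41-fold. Fcer1g, the shared signalling chain, was 1.99-fold higher and Fcgr3 1.85-fold. Fcgr4 (1.77, adjusted p = 0.0318) lost its call when any 1 of 7 libraries was left out, anti-CD8a replicate 3 with the largest adjusted p (1.51, adjusted p = 0.269), and Fcgrt, the neonatal Fc receptor, was at -0.11. Of 16 Toll-like receptors and partners 9 passed upward and all 16 had a higher estimate (median 0.75). Ly86 and Cd180, which form a complex related to Toll-like receptor 4, were 2.39-fold and 3.21-fold higher, Cd14, the lipopolysaccharide co-receptor, 2.44-fold, and Unc93b1, which brings nucleic acid sensors to endosomes, 1.6-fold. Tlr7, a sensor of single-stranded RNA, was 1.78-fold higher with 1 WT library (8.91 CPM) above 2 treated ones (8.45 and 8.41 CPM). Tlr4 (0.31), Tlr3 (0.27) and the adaptor Myd88 (0.16) did not pass. Without anti-CD8a replicate 3, 6 of the 16 passed.

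Cytokine genes were low. Il6, Tnf and Il10 were below the filter on low counts. Of 9 cytokine and inflammasome genes tested, Tgfb1 (1.75-fold), the inflammasome adaptor Pycard (1.89-fold) and the pore-forming protein gene Gsdmd (1.42-fold) passed upward, and Il1b (0.60, SE 0.40, adjusted p = 0.581) did not. None of the 3 passed without anti-CD8a replicate 3, with adjusted p of 0.0548, 0.238 and 0.295 and log2 fold changes of 0.69, 0.72 and 0.42. Without WT replicate 2, 3 or 4, 1 of the cytokine and inflammasome genes passed. Chemokine genes Ccl3 and Ccl6 are in the microglial list, at 9.77-fold and 5.09-fold. Among 9 others, Ccl12, a ligand of CCR2, and Cxcl10, an interferon-induced attractant of T cells, passed upward. Cxcl10 was at 0.695, 0.544, 0.808, 1.36 and 0.394 CPM in WT and at 1.1, 1.17, 3.67, 5.02 and 2.47 CPM in treated replicates, with WT replicate 4 above 2 treated libraries. Its log2 fold change was 1.94 (SE 0.45, adjusted p = 0.0333), and 1.72 without anti-CD8a replicate 3 (adjusted p = 0.28). That of Ccl12 was 2.05, and 1.43 without the same library (adjusted p = 0.294). Neither Ccl12 nor Cxcl10 passed without WT replicate 1 or 5, and Cxcl10 did not pass without WT replicate 2 or 3 or anti-CD8a replicate 5. None of the 9 chemokines passed without the libraries rich in Ttr or on the 10 libraries alone. Of the cytokine and inflammasome genes 1 passed without the libraries rich in Ttr, and it was none of the 3 named above. Tgfb1, Pycard and Gsdmd had adjusted p of 0.0762, 0.143 and 0.274 in that edgeR refit.

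Genes induced by interferon were higher in treated mice. All 40 effector genes tested had a higher estimate, and 21 passed upward, with a median log2 fold change of 0.80 beside 0.39 in PBS-given APP-PS1 mice, where 1 passed. Oasl2, an antiviral protein of the oligoadenylate synthetase family, was at 6.26, 5.80, 5.31, 7.20 and 3.83 CPM in WT replicates 1 to 5 and at 9.61, 8.02, 26.9, 14.4 and 11.3 CPM in treated replicates. Replicate 3 was again the highest, and the lowest treated library was above the highest WT one. The log2 fold change was 1.51 (SE 0.26, adjusted p = 0.0048), and 1.07 without replicate 3 (adjusted p = 0.0595). Oas1a, whose promoter is shown above, was at 0.822, 0.399, 0.404, 0.466 and 0.422 CPM in WT and 1.17, 0.656, 3.1, 1.72 and 0.907 CPM in treated mice. WT replicate 1 lay above treated replicate 2, and the log2 fold change of 1.76 (adjusted p = 0.0162) was 1.2 without treated replicate 3 (adjusted p = 0.238). Eif2ak2, the double-stranded RNA kinase PKR, was 1.67-fold higher, Slfn8 2.7-fold, the ubiquitin ligase gene Trim30a 2.22-fold and Parp14 2.11-fold; these 4 kept their calls without any single library. Isg15, the ubiquitin-like modifier, had a log2 fold change of 1.09 (adjusted p = 0.0203). Without anti-CD8a replicate 3, 39 of 40 estimates stayed above 0 with a median of 0.57 and 4 genes passed. Without WT replicate 3 the count was 10, without the libraries rich in Ttr it was 2, and on the 10 libraries alone 7 of 39 passed (median 0.73).

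**Figure D2:**
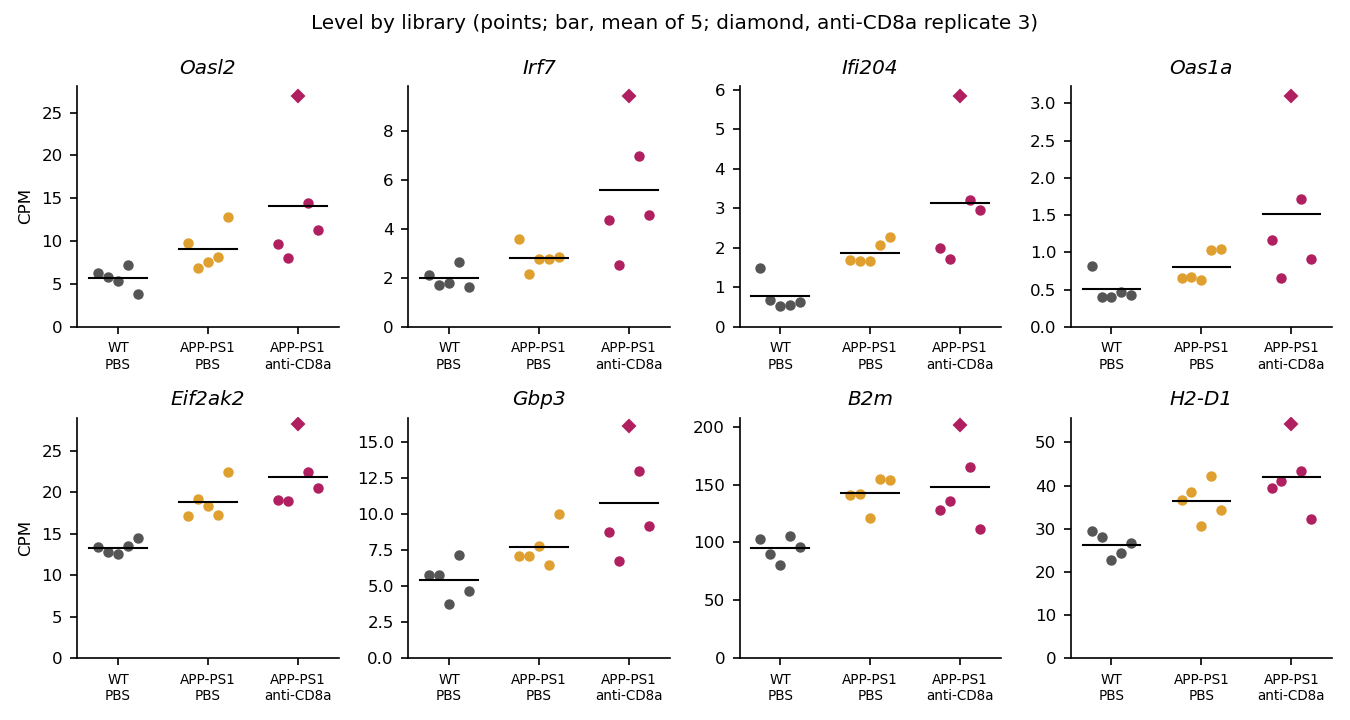
CPM (linear scale from 0) of 8 interferon-related genes in each library, by group, with a bar at the mean of 5 and a diamond for anti-CD8a replicate 3. The diamond is the highest point in every panel, at 26.9 CPM for Oasl2 and 28.2 CPM for Eif2ak2.

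Upstream of these effectors, 9 of 22 genes of interferon sensing and signalling passed upward (median 0.29). Irf7, the transcription factor that amplifies interferon production, was at 2.12, 1.70, 1.79, 2.67 and 1.63 CPM in WT and 4.37, 2.51, 9.46, 6.99 and 4.56 CPM in treated replicates. Treated replicate 2 fell inside the WT range and the other 4 lay above it. The log2 fold change was 1.55 (SE 0.29, adjusted p = 0.00889), and 1.08 without replicate 3 (adjusted p = 0.129). Irf8, a factor that microglia need for their identity, was 2.31-fold higher and was the one gene of this list that passed without that library. The RNA sensor Ddx58, RIG-I, was 1.62-fold higher and Tmem173, the DNA-sensing adaptor STING, 1.47-fold. The receptor chains Ifnar1 (0.02), Ifnar2 (0.09) and Ifngr2 (0.03) and the kinase genes Jak1 (-0.05) and Tbk1 (-0.06) did not pass. Counts of this list were 5, 3 and 3 without WT replicates 1, 2 and 3 and 4 without anti-CD8a replicate 4. Without the libraries rich in Ttr 1 gene of interferon sensing passed, and on the 10 libraries alone 3 did.

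The PYHIN genes encode DNA-binding proteins that interferon induces, and 4 neighbours on chromosome 1 passed upward among 8 tested (median 1.45). They are Ifi213 (173566283 to 173599274), Ifi209 (173630917 to 173647928), Ifi207 (173723427 to 173741747) and Ifi204 (173747293 to 173766943). The family holds close copies, so reads may be split between them. Ifi204 was at 1.49, 0.689, 0.520, 0.551 and 0.619 CPM in WT and 2.00, 1.71, 5.83, 3.20 and 2.97 CPM in treated replicates, with WT replicate 1 the nearest to the treated libraries (log2 fold change 2.16, SE 0.33, adjusted p = 0.00188). The others had log2 fold changes of 1.53, 1.89 and 1.89 in the order of their positions. Aim2, the inflammasome sensor of DNA (0.48), and Mndal (0.07) did not pass. Ifi204 alone of the PYHIN family passed without anti-CD8a replicate 3, and 2 passed without WT replicate 2, 3 or 4. Of 15 interferon-inducible GTPases, which act on vacuoles of intracellular microbes, 5 passed: Gbp3 (2.09-fold), Gbp5 (1.67-fold), Gbp6 (2.19-fold), Irgm1 (1.63-fold) and Irgm2 (1.49-fold). Gbp3 was at 3.75 to 7.20 CPM in WT and 6.76 to 16.1 CPM in treated mice, and treated replicate 2 fell inside the WT range. Gbp6 (adjusted p = 0.0475) lost its call when any 1 of 8 libraries was left out. None of the 15 interferon-inducible GTPases passed without anti-CD8a replicate 3, 9 passed without anti-CD8a replicate 2 and 2 without WT replicate 5. Without the libraries rich in Ttr no gene of the PYHIN family or of the GTPases passed, and on the 10 libraries alone 1 of each did.

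Some genes of antigen presentation by MHC class I were higher in treated mice. Of 20 genes 7 passed upward (median 0.51, beside 0.26 in PBS-given APP-PS1 mice). H2-D1, a classical heavy chain, was at 29.6, 28.02, 22.9, 24.4 and 26.7 CPM in WT and 39.5, 41.1, 54.2, 43.3 and 32.2 CPM in treated replicates, 1.66-fold higher with no overlap. B2m, the light chain, was 1.64-fold higher (95.0 ± 10.2 to 148 ± 35.7 CPM, adjusted p = 0.00512). Psmb8, a subunit of the immunoproteasome, was 1.78-fold higher, Tap1, a chain of the peptide transporter, 1.51-fold, and H2-Q4 1.51-fold. Class I genes are near copies of each other, so single members are uncertain. Calr (-0.23) and Pdia3 (-0.27), chaperones of peptide loading that also act on other proteins, had estimates below 0 and did not pass. Without anti-CD8a replicate 3, H2-D1 and B2m remained of the class I genes, and Psmb8 (0.67, adjusted p = 0.113) and Tap1 (0.47, adjusted p = 0.129) did not pass. Without the libraries rich in Ttr 1 class I gene passed, and on the 10 libraries alone 4 did. Of 13 class II genes 3 passed: Cd86, a co-stimulatory ligand (1.95-fold), and H2-Ob and H2-Oa, which form the modulator H2-O. H2-Oa (1.12, adjusted p = 0.0442) lost its call when any 1 of 8 libraries was left out, anti-CD8a replicate 3 with the largest adjusted p (0.99, adjusted p = 0.274). Without the libraries rich in Ttr, and without the sex term, 1 class II gene passed. The core genes Cd74 (0.73, SE 0.42), H2-Ab1 (0.42), H2-Aa (-0.12) and Ciita (0.05) did not pass. Cd74 ran from 1.23 to 5.37 CPM in WT and from 1.48 to 9.06 CPM in treated mice.

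Transcripts of T cells were few. Of 25 genes listed, 15 were below the filter, among them Cd3e, Cd8b1, Gzmb and Ifng. Cd8a, the target of the antibody, was at 0.253, 0.218, 0.0866, 0.127 and 0.366 CPM in WT and 0.100, 0.399, 0.707, 0.413 and 0.0824 CPM in treated replicates. The groups overlap in part, with the treated values of 0.399, 0.707 and 0.413 CPM above the highest WT value. Several values lie near the 3-count floor, and the difference did not pass (log2 fold change 0.76, SE 0.53, adjusted p = 0.612). These levels cannot show whether the antibody removed CD8a-bearing cells from the brain. Cd8b1 ran from 0.0289 to 0.0847 CPM in WT and from 0 to 0.206 CPM in treated mice. Pdcd1 (PD-1) and Lag3, inhibitory receptors of exhausted T cells that other cells can also express, passed upward. Lag3 was 2.08-fold higher with no overlap (4.56 to 6.42 CPM against 7.45 to 16.1 CPM). Pdcd1 was at 0.0316 to 0.169 CPM in WT and 0.300 to 1.65 CPM in treated mice (log2 fold change 3.02, SE 0.57, adjusted p = 0.00817), and did not pass without anti-CD8a replicate 3 (2.39, adjusted p = 0.0917). On the 10 libraries alone 1 of the T cell genes passed. Lck (0.18), Trac (-0.07) and Cd4 (-0.12) did not pass. None of 5 B cell genes and neither of 2 neutrophil genes passed in edgeR or DESeq2, with 1 B cell gene, Igkc, at an unadjusted p under 0.05.

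**Figure D3:**
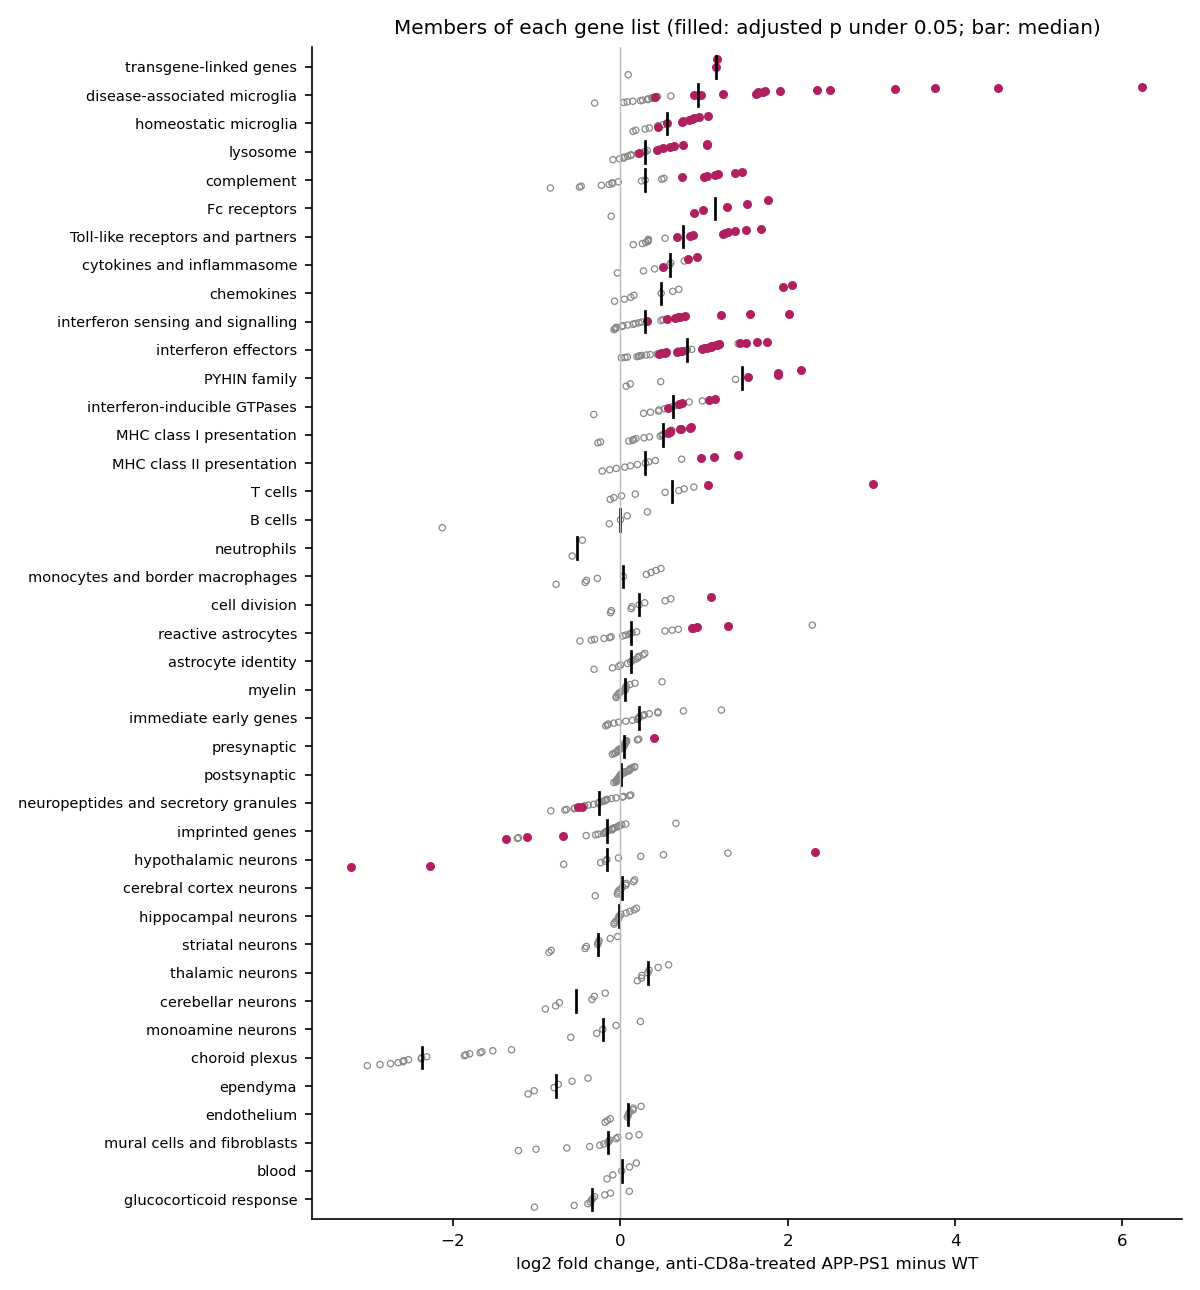
Log2 fold change of each tested member of 41 gene lists, treated APP-PS1 minus WT, with filled points for genes past the threshold and a bar at each median. Filled points lie to the right in the microglial, interferon and MHC lists and to the left in the neuropeptide and imprinted lists, the hypothalamic list has 1 to the right and 2 to the left, and all 17 choroid plexus genes lie to the left with none filled.

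Few astrocyte genes passed. Of 20 reactive astrocyte genes 4 passed upward and none downward (median 0.14, beside 0.43 in PBS-given APP-PS1 mice). Gfap, the intermediate filament that rises in reactive astrocytes, was at 434, 379, 348, 353 and 400 CPM in WT and 688, 873, 1309, 785 and 743 CPM in treated replicates, 2.44-fold higher with no overlap (adjusted p = 0.000127). Osmr, the oncostatin M receptor, was 1.81-fold higher, Ggta1 1.83-fold and Aspg 1.89-fold. Aspg did not pass without anti-CD8a replicate 3 (0.75, adjusted p = 0.229) or without anti-CD8a replicate 1 or WT replicate 2, 3 or 4. Serpina3n (0.54, adjusted p = 0.0616), Vim (0.14) and Lcn2 (2.30, SE 0.88, adjusted p = 0.28) did not pass. None of 12 genes of astrocyte identity passed in edgeR, where 6 had an unadjusted p under 0.05, all upward; DESeq2 called Slc1a2, the glutamate transporter (4807 ± 312 to 5374 ± 525 CPM). None of 12 myelin genes passed in either tool, with 1 at an unadjusted p under 0.05.

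Synaptic genes as a group stayed near 0. Of 22 presynaptic genes 1 passed: Rims1, a scaffold of the active zone, was at 212, 238, 217, 221 and 201 CPM in WT and 255, 298, 312, 249 and 280 CPM in treated replicates, 1.32-fold higher with no overlap (adjusted p = 0.00637). Without anti-CD8a replicate 3 its adjusted p was 0.0564. None of 26 postsynaptic genes passed in edgeR, none had an unadjusted p under 0.05 and DESeq2 called none (median 0.01, beside -0.13 in PBS-given APP-PS1 mice). None of 18 immediate early genes, which neurons raise with activity, passed in edgeR or DESeq2, and 4 had an unadjusted p under 0.05, all upward. Their median was 0.22, beside -0.31 in PBS-given APP-PS1 mice. Npas4 ran from 10.7 to 12.8 CPM in WT and from 12.7 to 19.6 CPM in treated mice (log2 fold change 0.45, adjusted p = 0.269), and Egr2 was highest in treated replicate 3 (10.2 CPM, WT 2.05 to 3.46 CPM).

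Neuropeptide genes fell in 2 of 23 cases and rose in none, with 19 estimates below 0 (median -0.26, beside -0.25 in PBS-given APP-PS1 mice). Npy, neuropeptide Y of inhibitory neurons, was at 34.7, 31.6, 30.2, 35.0 and 30.4 CPM in WT and 22.0, 25.3, 22.6, 23.4 and 23.1 CPM in treated replicates, and the groups did not overlap (log2 fold change -0.45, SE 0.07, adjusted p = 0.0021). Crhbp, which binds corticotropin-releasing hormone, was at 29.3, 29.4, 28.7, 31.9 and 24.4 CPM in WT and 19.3, 21.5, 17.6, 20.4 and 20.002 CPM in treated replicates (-0.51, SE 0.08, adjusted p = 0.00264). Both calls were kept without any single library. Sst (-0.55, adjusted p = 0.0796), Cort (-0.66) and Tac1 (-0.54) did not pass in edgeR, and DESeq2 called them and Nxph1 lower. Without WT replicate 5, 4 of the 23 passed downward.

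Among the largest decreases were Xlr3b and the imprinted gene Dlk1. Xlr3b, an X-linked gene of a family of close copies, was at 2.94, 6.05, 3.64, 3.81 and 5.82 CPM in WT and 0.834, 0.485, 0.707, 2.58 and 0.907 CPM in treated replicates (log2 fold change -2.30, SE 0.37, adjusted p = 0.00264). Treated replicate 4 was the nearest to WT. Arhgap6, a regulator of small GTPases on the X chromosome (168795099 to 169304435), ran from 5.93 to 10.8 CPM in WT and from 3.22 to 5.41 CPM in treated mice (-1.05, SE 0.14, adjusted p = 0.000808), and its call was kept without any single library. Myh7, a myosin heavy chain, was at 7.69 ± 0.478 against 4.57 ± 0.593 CPM and also kept its call without any single library. Xlr3b (-2.22, adjusted p = 0.0835) and Myh7 (-0.65, adjusted p = 0.122) did not pass without the libraries rich in Ttr. Dlk1, Magel2 and Peg10, imprinted genes expressed from the paternal allele, passed downward among 23 imprinted genes tested, of which 20 had estimates below 0 (median -0.16, beside 0.01 in PBS-given APP-PS1 mice). Dlk1 was at 10.9, 11.8, 12.3, 12.6 and 7.54 CPM in WT and 5.51, 4.71, 1.95, 3.96 and 6.15 CPM in treated replicates, with no overlap (-1.36, SE 0.26, adjusted p = 0.00824). Without the libraries rich in Ttr 1 imprinted gene passed. Without anti-CD8a replicate 3 or WT replicate 5, Dlk1 was the one of the imprinted genes that passed. Peg10 was then at -0.64 (adjusted p = 0.0657) and -0.57 (adjusted p = 0.0604), and Magel2 at -0.98 (adjusted p = 0.0745) and -0.78 (adjusted p = 0.125).

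Some of the decreases were called only with WT replicate 5 in the fit, and others were called without it too. Ngb, neuroglobin, went from a log2 fold change of -1.03 to -0.80 without it (adjusted p = 0.157) and Ecel1, a peptidase of neurons, from -1.50 to -1.2 (adjusted p = 0.0687). Ngb was also not called without anti-CD8a replicate 3 (-0.92, adjusted p = 0.114). Gpr101, an orphan receptor, was 17.2 to 22.98 CPM in WT replicates 1 to 4, 8.66 CPM in WT replicate 5 and 5.86 to 10.5 CPM in treated mice (-0.98, SE 0.24, adjusted p = 0.0489). Leaving out any 1 of 8 libraries ended that call, anti-CD8a replicate 3 with the largest adjusted p (0.33). Tpbg (-0.94, adjusted p = 0.0215) had WT replicate 5 (3.88 CPM) inside the treated range (3.00 to 4.07 CPM) and the other WT libraries at 7.85 to 9.11 CPM, and 4 libraries each ended its call, anti-CD8a replicate 3 with the largest adjusted p (-0.80, adjusted p = 0.181). Ano2, a chloride channel, was at 2.71 to 7.31 CPM in WT and 1.26 to 3.24 CPM in treated mice (-1.35, adjusted p = 0.00248). Rtp1, a chaperone of odorant receptors, ran from 1.43 to 6.07 CPM and from 0.413 to 1.4 CPM without overlap, and leaving out any 1 of 7 libraries ended its call (-1.46, adjusted p = 0.218 without anti-CD8a replicate 3). Without WT replicate 5, Gpr101 (-1.34, adjusted p = 0.000606) and Tpbg (-1.29, adjusted p = 6.27e-05) passed with larger decreases. Rtp1 (-1.86, adjusted p = 0.0237) and Ano2 (-1.22, adjusted p = 0.0221) also passed without that library. Ano2 did not pass without the libraries rich in Ttr (-1.17, adjusted p = 0.149) or without the sex term.

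Some genes that serve protein folding in the endoplasmic reticulum were lower in treated mice. The group was put together after Hspa5, Manf, Xbp1 and Herpud1 had been seen among the 35 decreases, so its count is a description. Of 29 chaperone and unfolded protein response genes these 4 passed, none passed upward, and 27 estimates were below 0 (median -0.23, beside -0.08 in PBS-given APP-PS1 mice). Hspa5, the main Hsp70 chaperone there (BiP), was at 354, 401, 360, 403 and 629 CPM in WT replicates 1 to 5 and at 308, 336, 272, 272 and 244 CPM in treated replicates. WT replicate 5 was far above the rest, and the other WT libraries still lay above all treated ones. The log2 fold change was -0.65 (SE 0.14, adjusted p = 0.0218), and -0.43 without WT replicate 5 (adjusted p = 0.139). It was -0.32 in labelled females alone and -1.19 in labelled males alone. WT replicate 5 is the only male of the WT group and is rich in Ttr, so its sex and its other traits cannot be told apart. Xbp1, the transcription factor of this response, was at 68.4, 82.2, 71.5, 77.0 and 94.7 CPM in WT and 65.0, 66.6, 55.0, 61.0 and 52.2 CPM in treated replicates (-0.44, SE 0.09, adjusted p = 0.0136). Manf, a secreted factor of the same compartment, was at 41.9 ± 10.3 and 29.6 ± 2.68 CPM, and Herpud1, of protein degradation there, at 42.9 and 35.1 CPM on average. The Herpud1 groups overlapped, with treated replicate 4 (38.1 CPM) above WT replicate 1 (37.4 CPM). Manf lost its call when any 1 of 7 libraries was left out. The stress factors Ddit3 (-0.03) and Atf4 (-0.05) did not pass. None of the 4 passed without anti-CD8a replicate 3, where the log2 fold changes were -0.67 for Hspa5, -0.57 for Manf, -0.43 for Xbp1 and -0.33 for Herpud1. None passed without WT replicate 5 (-0.43, -0.37, -0.36 and -0.29 in that order) or without the libraries rich in Ttr (-0.38, -0.33, -0.34 and -0.26). On the 10 libraries alone 1 of the 29 passed; with choroid plexus level as a covariate 1 did. Without anti-CD8a replicate 2, 7 of the 29 passed, and without WT replicate 2, 2 did.

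**Figure D4:**
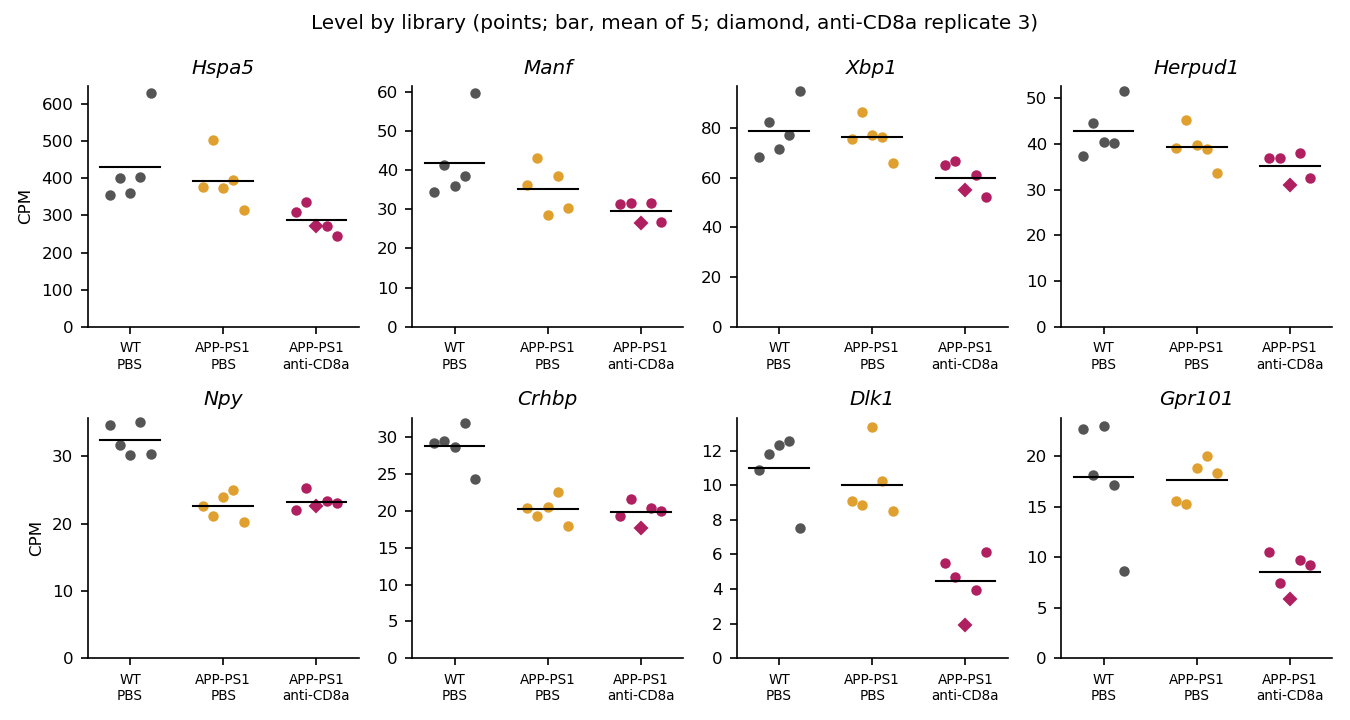
CPM (linear scale from 0) in each library of 8 genes that passed downward, by group, with a bar at the mean of 5 and a diamond for anti-CD8a replicate 3. Npy and Crhbp separate WT from APP-PS1 mice of either treatment, while Hspa5 and Manf have 1 WT library, replicate 5, far above the others.

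Markers of tissue next to the brain's ventricles differed between the same libraries. All 17 choroid plexus genes had estimates below 0 (median -2.37) and none passed in edgeR or DESeq2, with 6 at an unadjusted p under 0.05. Their summed level ran from 268 to 11280 CPM in WT and from 279 to 3333 CPM in treated mice, highest in WT replicate 5. All 6 ependyma genes were below 0 as well (median -0.76). With the choroid plexus level as a covariate 259 genes passed, 238 upward and 21 downward. Of 10 glucocorticoid-responsive genes 9 had estimates below 0 (median -0.33), none passed in edgeR or DESeq2 and 4 had an unadjusted p under 0.05. Tsc22d3, a direct target of the glucocorticoid receptor, ran from 80.8 to 149 CPM in WT and 52.2 to 114 CPM in treated mice. The 7 thalamic neuron genes were all above 0 with none past the threshold in either tool, and their summed level was 436 CPM in treated replicate 4 against 89.9 to 122 CPM in the other treated libraries. Of the hypothalamic genes, Irs4 (-2.28, adjusted p = 0.00399) fell from 0.680 ± 0.095 to 0.173 ± 0.169 CPM. Isl1 (-3.21) had its highest level in WT replicate 5 (1.86 CPM, at most 0.508 CPM in the other 9) and was not called without any 1 of 7 libraries, that one with the largest adjusted p (-3.74, adjusted p = 0.289). Pmch (2.33) was at 2.60 CPM in treated replicate 2 and at most 0.471 CPM in the other 9, with 1.13 without that library (adjusted p = 0.325), and was also not called without WT replicate 1, 3 or 4. Without the libraries rich in Ttr 1 hypothalamic gene passed, downward, and on the 10 libraries alone 2 did, both downward. The part of these tissue markers in the lower genes was not tested.

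The calls differed in how far they held when libraries were left out. When any 1 of the 10 libraries was left out, 12 to 18 disease-associated microglia genes and 4 to 28 interferon effectors passed upward. Over 101 genes that passed and were followed through 26 refits, 61 kept their call without anti-CD8a replicate 3 and 40 lost it. Among the 40 were Oasl2 and Irf7, whose log2 fold changes were 1.51 and 1.55 with it and 1.07 and 1.08 without it. The 4 genes of protein folding were also among the 40, with fold changes close to those with the library (Hspa5 -0.65 with it and -0.67 without it). Cst7, Trem2, C4b, Cx3cr1, Gfap, Npy, Crhbp and Arhgap6 kept their calls. Labelled females alone (2 treated, 4 WT) gave 268 calls, with 15 disease-associated microglia genes and 3 interferon effectors among them. Labelled males alone, with 1 WT library, gave 1 call, Lamr1-ps1.

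**Figure D5:**
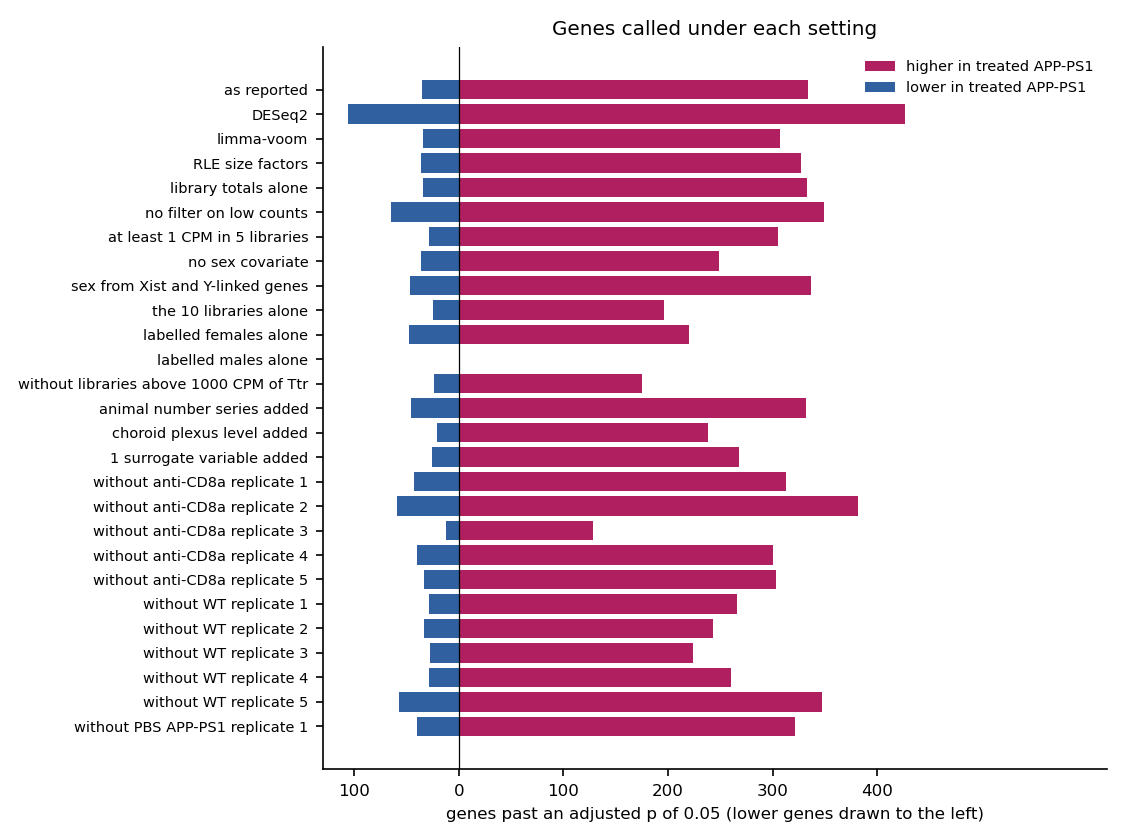
Number of genes past an adjusted p of 0.05 in the comparison as reported and in each of 26 refits, with genes higher in treated APP-PS1 mice to the right and lower ones to the left. The bar without anti-CD8a replicate 3 is the shortest among the refits that leave out 1 library, at 128 higher and 12 lower.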

How the data were processed

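RNA sequencing was done on brain tissue of 15 mice, 5 per group, and groups were taken from the labels. Poly(A) RNA was made into stranded libraries and sequenced on a NextSeq500, per the labels' protocols. The authors deposited whole-number counts of reads per gene for each library. FastQC, Bowtie2 2.2.2, HTSeq 0.11.2, DESeq2 and the build GRCm38 are named, per the submitters' processing notes; options, annotation release and strand setting: not given in the sources used here. Bowtie2 does not align reads across introns, so exons of small size may be undercounted, and antisense or copied genes are uncertain. All 15 count columns matched a sample, with 0 left over. HTSeq's summary rows were left out.

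All 15 libraries were fitted together with edgeR 4.0.16 (R 4.3.3), with TMM scaling, its default filter on low counts (18974 genes kept) and terms for group and labelled sex. The quasi-likelihood test compared antibody-treated APP-PS1 with WT, with Benjamini-Hochberg adjustment over all genes tested. CPM are counts scaled to TMM-adjusted library totals, fold changes come from the fit, and ± is the SD of 5 libraries. Each library is labelled as a separate mouse. PBS-given APP-PS1 replicate 1 is labelled male and shows the female pattern of sex-linked genes. The 20 pairs of libraries within the groups compared differed by more than sampling noise. On simulated counts for 18974 genes the fit recovered 20%, 58%, 74% and 96% of 50 genes each changed 1.2-, 1.5-, 2- and 4-fold, with 4 false calls. Genes with few counts were not among those changed, and no sex difference or outlying library was built in.

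Genes named are the 15 largest increases and 15 largest decreases among called genes with a mean of at least 1 CPM, up to 5 called genes of smallest p per list, the 2 of smallest p in lists with none, and a fixed set with App, Cd8a and Cst7. List members that did not pass, and a few others, were named after their values were seen. Some genes that the rule names are not reported here. The groups compared, the gene lists and the rule were chosen with earlier results of these data known. DESeq2 1.42.0, limma 3.58.1 (voom) and a surrogate variable from sva 3.50.0 served as alternatives, with other scalings, filters, covariates and subsets of libraries. Positions are from GENCODE M21 and promoters from RefSeq, both on GRCm38.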

Additional observations from a re-analysis of the deposited data

Results flagged for a closer look

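In 141 genes described, each group of 5 libraries was searched for a highest or lowest library set apart from the others by more than 0.71 of the range of the group. Of 282 such groups 40 stood out, where chance gives about 1 in 20 for independent values with a normal spread. Most of these genes were described because they passed, and 1 library can stand out in many of them. The 40 are therefore a description.

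Anti-CD8a replicate 3 was the library set apart in 15 of them. It was the highest of the treated libraries for the microglial genes Cst7 (53.2 CPM), Itgax (26.0 CPM), Ccl6 (18.7 CPM), Trem2 (59.2 CPM) and Fcrls (79.8 CPM). The same held for the lysosomal genes Ctss (269 CPM) and Man2b1 (91.2 CPM), and for C1qa (140 CPM), C1qb (105 CPM) and Itgb2 (23.3 CPM) of the complement list. It was also the highest for Fcgr1 (13.1 CPM), Unc93b1 (28.2 CPM), Gsdmd (4.68 CPM) and Ifi213 (1.68 CPM), and the lowest for Magel2 (0.808 CPM).

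WT replicate 1 was the highest WT library for C1qa (50.03 CPM), C1qb (43.5 CPM), Ifi204 (1.49 CPM), Oas1a (0.822 CPM), Ifi209 (0.695 CPM), Ddc (10.7 CPM) and Plin4 (69.1 CPM). WT replicate 5 was the highest for Hspa5 (629 CPM), Manf (59.8 CPM), Isl1 (1.86 CPM), Ppp1r1b (56.8 CPM) and Calml4 (21.8 CPM), and the lowest for Tpbg (3.88 CPM). WT replicate 3 was the lowest for Ighm (12.5 CPM).

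Among the other treated libraries, replicate 1 was the highest for the choroid plexus genes Ttr (1860 CPM), Kcnj13 (11.1 CPM) and Calml4 (6.64 CPM) and for Irs4 (0.467 CPM). Replicate 2 was the highest for Pmch (2.60 CPM) and Plin4 (29.9 CPM). Replicate 4 was the highest for the thalamic genes Prkcd (124 CPM) and Tcf7l2 (46.8 CPM), for Zic1 of the cerebellar list (61.2 CPM), and for Xlr3b (2.58 CPM) and Isl1 (0.482 CPM). Cbln3 of the cerebellar list had 10 counts in replicate 4, against 14 to 21 in the other treated libraries.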

How the results depend on the processing

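The comparison as reported gave 369 genes, 334 higher and 35 lower. DESeq2 gave 106 lower and no filter on low counts 65 lower. The 10 libraries alone gave 221 genes (196 higher), labelled females alone 220 higher, and labelled males alone 1 gene (1 higher, 0 lower). Without the libraries above 1000 CPM of Ttr 199 passed (175 higher), and with the choroid plexus level as a covariate 21 passed downward. Leaving out 1 library gave 140 to 441 genes, 128 to 382 higher and 12 to 59 lower; the lowest counts came without anti-CD8a replicate 3 and the highest without anti-CD8a replicate 2. Without WT replicate 5, 57 passed downward. Over 101 called genes and 26 alternatives, 2 values changed sign, Gpr101 (0.19) and Tpbg (0.0597), both in labelled males alone; the cause was not tested. Lamr1-ps1 kept its call in all 26. Leaving out PBS-given APP-PS1 replicate 1, whose sex genes go against its label, was chosen after seeing the data and gave 362 genes, 322 higher and 40 lower. No paired analysis was possible because the animal numbers are not shared between groups. With 5 mice a group, 20%, 58% and 74% of changes of 1.2-, 1.5- and 2-fold were recovered in simulated counts, where genes with few counts were not changed. Genes near the 3-count floor cannot show small differences.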

Other observations

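Genes outside the lists were read from those that passed and chosen after their values were seen, so they are a description. They were not among the 101 genes followed through the refits, so whether each call rests on 1 library was not tested. Without anti-CD8a replicate 3, 128 genes passed upward, against 334 with it. Subunits of the NADPH oxidase of phagocytes were higher in treated APP-PS1 mice: Cybb, its catalytic subunit, with a log2 fold change of 1.51, Cyba with 0.73, Ncf1 with 0.61 and the activating GTPase Rac2 with 0.74. Ncf4 (0.85, adjusted p = 0.0987 in edgeR) did not pass. The transcription factor genes Spi1 (0.84), Ikzf1 (0.72) and Runx1 (0.90), which act in the myeloid lineage, passed upward. So did Cd33 (0.73), Inpp5d (0.71) and Abi3 (0.98), microglial genes near variants linked to the risk of Alzheimer's disease. Sensors of bacterial products passed as well, with Naip2 at 0.90, Naip5 at 0.83, Naip6 at 1.23 and the inflammatory caspase gene Casp4 at 1.36; the Naip genes are close copies and single members are uncertain. The inhibitory immune genes Havcr2 (0.66), Vsir (0.95) and Cd274 (0.70) passed upward.

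Among genes that passed downward were the serotonin receptor gene Htr2a (-0.54), the galanin receptor gene Galr1 (-0.92), the thyroid hormone receptor gene Thrb (-0.31) and Fst (-1.46), which encodes the activin-binding protein follistatin.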
